A study of Mus musculus with 6 samples.

Results

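Fc receptors bind the constant part of antibodies and tie antibody to the cells of innate immunity. The 8 genes described here were taken by name from the table of read counts: the activating IgG receptor genes Fcgr1, Fcgr3 and Fcgr4, the inhibitory IgG receptor gene Fcgr2b, the IgE receptor genes Fcer1a and Ms4a2, the common signalling chain gene Fcer1g and the neonatal Fc receptor gene Fcgrt. They are 8 of 23337 counted genes. The cells were mouse hematopoietic stem and progenitor cells carrying MLL-AF9, an oncogenic fusion found in acute leukemia, which transforms the cells of all 6 libraries. They were kept in pro-lymphoid culture (3 libraries, lymphoid replicates 1, 5 and 6) or in pro-myeloid culture (3 libraries, myeloid replicates 2, 3 and 4), and the comparison asks which transcripts differ between the cultures under the same oncogene. The labels do not give the culture media, the vector of the fusion, the age or strain of the mice, or whether libraries of a group came from separate cultures, so p-values reflect the spread between the libraries as deposited, and that spread may be technical.

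In mouse, the activating IgG receptors and the IgE receptor signal through the common gamma chain encoded by Fcer1g, which carries an immunoreceptor tyrosine-based activation motif (ITAM). Fcgr2b carries the opposing inhibitory motif (ITIM) in its own tail and is the main Fc receptor of B cells, but is also made by myeloid cells. Fcgr1, Fcgr3 and Fcgr4 are receptors of monocytes, macrophages and neutrophils, the IgE receptor is a hallmark of mast cells and basophils, and Fcgrt salvages IgG and albumin inside cells.

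The libraries held 34972488 to 46724382 counts, and levels are given as counts per 1000000 (CPM) after TMM scaling of the library sizes. A level of 3 counts in a single library equals 0.0650 to 0.0888 CPM. Reads carry no molecular identifiers, so counting intervals and such floors cover counting error only. Of the markers of stem and progenitor cells, Kit stood at 83.5 ± 16.8 CPM in the pro-lymphoid and 24.9 ± 15.6 CPM in the pro-myeloid culture and Cd34 at 308 ± 105 CPM in the pro-lymphoid and 117 ± 29.2 CPM in the pro-myeloid culture (SD, n = 3 each), while Slamf1 and Procr had 0 and 3 counts in all in pro-lymphoid culture, against 4 and 54 in pro-myeloid culture. Of 12477 genes tested, 37.4% changed in the edgeR quasi-likelihood test at an adjusted p under 0.05, with 16.8% higher and 20.6% lower in the pro-lymphoid libraries.

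Activating Fc receptor transcripts were low in pro-lymphoid culture, while the inhibitory receptor and the signalling chain had more than 50 CPM in every library of both cultures. Of the 8 genes, 5 fell in pro-lymphoid culture (Fcgr1, Fcgr3, Fcgr4, Ms4a2 and Fcgrt), 2 did not pass (Fcgr2b and Fcer1g) and Fcer1a, with no read, was not tested. Of all tested genes, 20.6% were lower. The 7 genes that passed the filter on low counts were lower in every pro-lymphoid library than in any pro-myeloid library. This arrangement was found for 27.2% of all tested genes. Ms4a2 passed the filter only through its pro-myeloid counts. Fcgr1, with 1, 69 and 18 counts in lymphoid replicates 1, 5 and 6, also needed its pro-myeloid counts to pass. For both genes the filter itself favoured a lower level in pro-lymphoid culture. These are bulk libraries, in which fewer cells with a transcript and less of it per cell cannot be told apart.

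**Figure D1:**
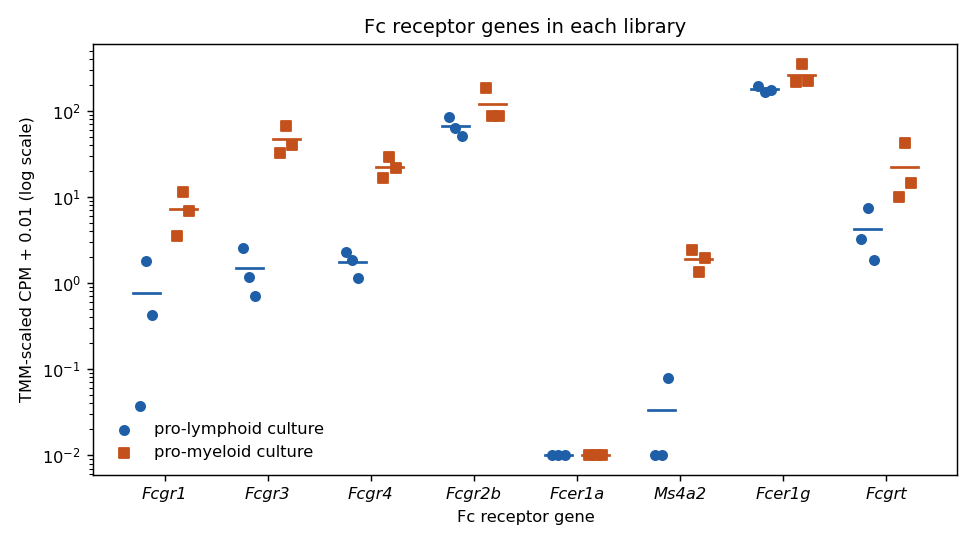
TMM-scaled CPM plus 0.01 (log y axis) of the 8 Fc receptor genes, shown as circles for pro-lymphoid and squares for pro-myeloid libraries, and a bar marks each group's mean of 3. Fcgr3 averaged 1.47 CPM in pro-lymphoid and 46.3 CPM in pro-myeloid culture, whereas Fcer1g stayed above 160 CPM in every library and Fcer1a lies at 0 in all of them.

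Fcgr3 encodes a low-affinity activating receptor for IgG complexes (mm10, chromosome 1, 171051169 to 171059403, minus strand). It stood at 2.55, 1.18 and 0.698 CPM in the lymphoid replicates (1, 5 and 6), against 32.3, 66.9 and 39.8 CPM in the myeloid replicates (2, 3 and 4). The lowest pro-myeloid library thus lay far above the highest pro-lymphoid one. The log2 fold change was -4.98 ± 0.54 (SE, edgeR adjusted p = 0.000756), and it was -5.63 without lymphoid replicate 1, the highest library of its group.

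Fcgr4, its neighbour on the chromosome, encodes a mouse activating receptor of monocytes and neutrophils (chromosome 1, 171018926 to 171029761, plus strand). Its values were 2.28, 1.86 and 1.14 CPM in the lymphoid replicates (1, 5 and 6), against 16.4, 28.7 and 21.8 CPM in the myeloid replicates (2, 3 and 4). The libraries ran in the same order for Fcgr4 as for Fcgr3 within each culture, with lymphoid replicate 1 and myeloid replicate 3 highest and lymphoid replicate 6 and myeloid replicate 2 lowest. Fcgr4 was lower in pro-lymphoid culture, with a log2 fold change of -3.66 ± 0.35 (SE, edgeR adjusted p = 0.000470).

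Fcgr1 encodes the high-affinity IgG receptor of monocytes and macrophages (chromosome 3, 96282909 to 96293969, minus strand). It had 1, 69 and 18 counts in lymphoid replicates 1, 5 and 6, which is 0.0271, 1.80 and 0.419 CPM, against 3.54, 11.5 and 6.83 CPM in myeloid replicates 2, 3 and 4. Within pro-lymphoid culture its log2 CPM values spanned 4.57, a wider range than that of 99.6% of the tested genes. The fall passed only narrowly (edgeR adjusted p = 0.0470), with a log2 fold change of -3.27 ± 1.06 (SE). It was lost without lymphoid replicate 6 (edgeR adjusted p = 0.149), myeloid replicate 3 (0.123) or myeloid replicate 4 (0.0969), and the log2 fold change was -4.97 without lymphoid replicate 5.

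The stretches before the transcript starts of these 3 genes are shown because the 3 fell together. They are the 250 bases upstream of the RefSeq start (GRCm38.p6), printed 5′ to 3′ on the gene's own strand, at chr3:96293970-96294219 (minus strand), chr1:171059404-171059653 (minus strand) and chr1:171018676-171018925 (plus strand), with Fcgr2b at chr1:170976072-170976321 (minus strand) for comparison. Capitals mark matches, on either strand, to GAGGAA (the core bound by PU.1, a myeloid transcription factor), to TTGCNNAA (bound by C/EBP factors), to TTCNNNGAA (the gamma-activated site of STAT factors, GAS) and to AGATAA (bound by GATA factors), where N is any base. In these 4 stretches no match overlaps another.
Fcgr1: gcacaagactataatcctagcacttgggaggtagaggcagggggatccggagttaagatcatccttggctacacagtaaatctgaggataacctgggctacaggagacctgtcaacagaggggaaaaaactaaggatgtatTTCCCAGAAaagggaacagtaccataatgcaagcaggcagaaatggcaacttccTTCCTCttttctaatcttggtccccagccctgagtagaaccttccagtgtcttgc
Fcgr3: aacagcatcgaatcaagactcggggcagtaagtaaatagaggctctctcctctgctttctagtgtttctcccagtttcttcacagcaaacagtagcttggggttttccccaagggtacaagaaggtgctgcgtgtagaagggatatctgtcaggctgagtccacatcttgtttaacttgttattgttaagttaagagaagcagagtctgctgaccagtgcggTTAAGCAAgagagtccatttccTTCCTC
Fcgr4: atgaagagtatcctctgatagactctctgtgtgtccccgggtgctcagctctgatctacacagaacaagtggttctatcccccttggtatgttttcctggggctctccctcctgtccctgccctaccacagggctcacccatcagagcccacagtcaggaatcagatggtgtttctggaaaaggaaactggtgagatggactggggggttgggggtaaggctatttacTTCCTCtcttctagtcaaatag
Fcgr2b: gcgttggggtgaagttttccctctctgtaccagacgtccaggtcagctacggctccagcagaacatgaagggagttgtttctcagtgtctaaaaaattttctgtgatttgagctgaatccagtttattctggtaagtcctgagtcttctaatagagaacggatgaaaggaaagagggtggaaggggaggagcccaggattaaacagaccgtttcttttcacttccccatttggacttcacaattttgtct

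Each of the 3 activating receptor genes had 1 match to GAGGAA, lying on the opposite strand and so printed as TTCCTC. It began 55, 6 and 22 bases before the start in Fcgr1, Fcgr3 and Fcgr4. Fcgr3 has 2 RefSeq promoter windows, and its positions refer to the one that ends at the start of its counted exons. Fcgr3 also had a C/EBP match 28 bases and Fcgr1 a GAS match 109 bases before the start. Fcgr2b and Fcer1g had no match to any of the 4 motifs in this window. Over all 32851 RefSeq promoter windows of this length, GAGGAA was found in 23.3%, TTGCNNAA in 9.56%, TTCNNNGAA in 7.02% and AGATAA in 9.99%. The 3 matches to AGATAA upstream of Ms4a2 began 224, 37 and 11 bases before its start, and Fcer1a had 1 such match, 92 bases before its start. Fcer1a, which had no read, also had a GAGGAA match 216 bases and a C/EBP match 118 bases before its start. Fcgrt had a single C/EBP match, 239 bases before its start. A match describes the letters of the window and does not show that a factor binds there.

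**Figure D2:**
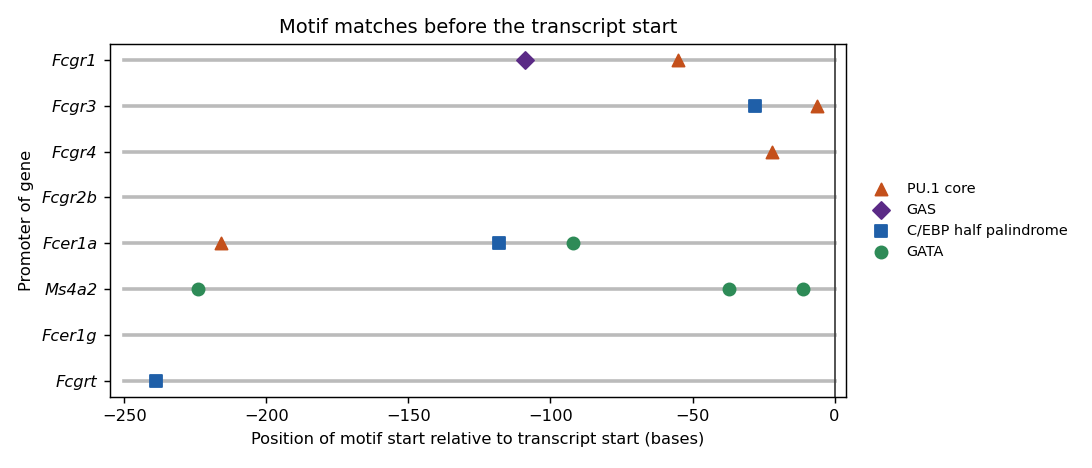
Position of motif matches (x axis, bases relative to the RefSeq transcript start, with each motif's first base plotted) in the 250 bases before the start of the 8 Fc receptor genes (y axis). The PU.1 core lies within 55 bases of the start in Fcgr1, Fcgr3 and Fcgr4 and 216 bases before the start in Fcer1a, and the lines of Fcgr2b and Fcer1g carry no match.

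Fcgr2b encodes the inhibitory IgG receptor (chromosome 1, 170960559 to 170976071, minus strand). It stood at 84.6, 62.9 and 51.3 CPM in the lymphoid replicates (1, 5 and 6), against 183, 86.4 and 87.7 CPM in the myeloid replicates (2, 3 and 4). The groups did not overlap, but lymphoid replicate 1 came close to myeloid replicates 3 and 4, and myeloid replicate 2 stood apart from both. The log2 fold change of -0.84 ± 0.33 (SE) did not pass (edgeR adjusted p = 0.0846). It was -0.40 without myeloid replicate 2 (edgeR adjusted p = 0.174), while DESeq2 called the gene as lower (adjusted p = 0.0322).

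Exons of Fcgr2b and Fcgr3 are nearly alike, which limits both values. The longest stretch that their coding sequences share exactly is 129 bases, longer than the reads of 100 bases, and is printed from the GENCODE transcripts (GRCm38). It lies on the minus strand of chromosome 1 in 2 exons of each gene, at chr1:171057691-171057792 and chr1:171054167-171054193 in Fcgr3 and at chr1:170967980-170968081 and chr1:170966674-170966700 in Fcgr2b.
Fcgr3 and Fcgr2b: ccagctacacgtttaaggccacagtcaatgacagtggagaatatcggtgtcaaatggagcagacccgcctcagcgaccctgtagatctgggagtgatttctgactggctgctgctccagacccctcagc

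Of the 1248 windows of 100 bases in the Fcgr3 transcript, 3.53% occur exactly in Fcgr2b and 20.6% match it with at most 2 mismatches. Fcgr1 and Fcgr4 have no window within 2 mismatches of another IgG receptor gene. Fcgr3 took 2.93%, 1.84% and 1.34% of the joint counts of Fcgr2b and Fcgr3 in lymphoid replicates 1, 5 and 6, against 15%, 43.6% and 31.2% in myeloid replicates 2, 3 and 4. Whether the few Fcgr3 reads of pro-lymphoid culture came from Fcgr2b cannot be told apart in these counts. With the counts of both genes added to 1 feature, its log2 fold change was -1.29 (edgeR adjusted p = 0.00776).

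The makeup of IgG receptor RNA differed between the cultures when levels were compared per kilobase of exon. Summed over Fcgr1, Fcgr2b, Fcgr3 and Fcgr4, the level was 58.4, 43.8 and 34.7 CPM per kilobase in lymphoid replicates 1, 5 and 6, against 156, 133 and 106 CPM per kilobase in myeloid replicates 2, 3 and 4. Fcgr2b made up 93.6%, 93% and 95.4% of that sum in lymphoid replicates 1, 5 and 6, against 75.5%, 42.1% and 53.4% in myeloid replicates 2, 3 and 4. Fcgr2b thus made up nearly all of this sum in pro-lymphoid culture. The sum leaves out Fcgrt, whose product also binds IgG. The 3 activating genes together stood at 0.0636 ± 0.0140 times the level of Fcgr2b in pro-lymphoid and 0.857 ± 0.525 times in pro-myeloid culture (SD, n = 3 each), where myeloid replicate 2 was lowest, at 0.324, and myeloid replicate 3 highest, at 1.37. These shares are a description, without a test.

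**Figure D3:**
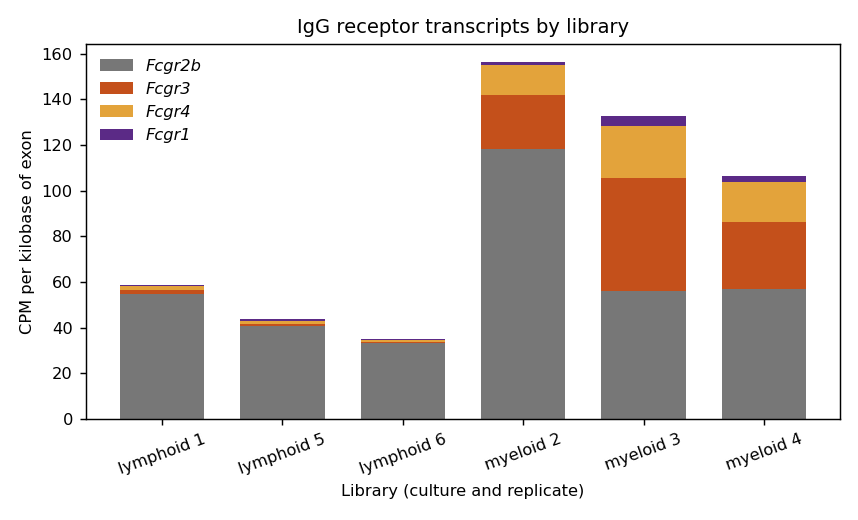
Stacked CPM per kilobase of exon (y axis) of the 4 IgG receptor genes in each library (x axis, lymphoid or myeloid replicate). Fcgr2b fills 93% or more of each pro-lymphoid bar, against 42.1% to 75.5% of the pro-myeloid bars, of which that of myeloid replicate 2 is tallest.

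Fcer1g, the gamma chain gene on whose product the activating receptors depend, was abundant in both cultures (chromosome 1, 171229572 to 171234349, minus strand). It stood at 191, 164 and 174 CPM in the lymphoid replicates (1, 5 and 6), against 216, 353 and 219 CPM in the myeloid replicates (2, 3 and 4). The pro-lymphoid libraries lay close together, and myeloid replicate 3 stood above the other pro-myeloid libraries. The log2 fold change of -0.57 ± 0.21 (SE) did not pass (edgeR adjusted p = 0.0653), was called with DESeq2 (adjusted p = 0.0278) or without myeloid replicate 2 (edgeR adjusted p = 0.0353), and was -0.30 without myeloid replicate 3. Per kilobase, Fcer1g stood at 109 ± 49.9 times the summed level of the 3 activating IgG receptors in pro-lymphoid culture and at 7.43 ± 0.996 times in pro-myeloid culture (SD, n = 3 each).

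The IgE receptor was undetected or rare. Fcer1a, its IgE-binding chain (chromosome 1, 173221271 to 173227229, minus strand), had 0 counts in all 6 libraries, which allows up to 0.0254 CPM in either culture at 3 counts over the group. Ms4a2, its beta chain (chromosome 19, 11617193 to 11623643, minus strand), had 0, 0 and 3 counts in lymphoid replicates 1, 5 and 6, against 93, 45 and 89 counts in myeloid replicates 2, 3 and 4, or 2.42, 1.33 and 1.93 CPM. Its level in pro-lymphoid culture was 0.0132 times that in pro-myeloid culture (95% counting interval 0.00271 to 0.0392, edgeR adjusted p = 0.00206).

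Markers of mast cells and basophils ranged from undetected to well expressed. Of 14 such markers, 6 had no count in any library (Prss34, Tpsab1, Tpsb2, Cma1, Mcpt4 and Mrgprb2). Of 6 tested, 1 was higher and 3 were lower in pro-lymphoid culture (1 and 2 to 4 with each library left out). The shares over all tested genes were 16.8% and 20.6%. The summed level of the 14 markers ran from 20.2 to 40.7 CPM in pro-lymphoid and from 94.8 to 172 CPM in pro-myeloid culture. Much of that sum came from Gata2, a transcription factor gene that progenitor cells use too. It stood at 21.2, 12 and 31.4 CPM in the lymphoid replicates (1, 5 and 6), against 146, 33.2 and 40.9 CPM in the myeloid replicates (2, 3 and 4). It was not called (edgeR adjusted p = 0.0603). Mcpt8, a basophil protease gene, stood at 1.36 ± 0.791 CPM in the pro-lymphoid and 13.6 ± 6.82 CPM in the pro-myeloid culture (SD, n = 3 each, edgeR adjusted p = 0.00638). Hdc, the gene of the histamine-forming enzyme, stood at 1.63, 0.942 and 1.26 CPM in the lymphoid replicates (1, 5 and 6), against 0.521, 29.8 and 76.3 CPM in the myeloid replicates (2, 3 and 4), so that it was called (edgeR adjusted p = 0.0328) although the groups overlap. That call held only without myeloid replicate 2 when libraries were left out singly, and was lost with limma-voom (adjusted p = 0.352). Il1rl1, the interleukin 33 receptor gene, went the other way, with 109 counts in pro-lymphoid culture, against 1 in pro-myeloid culture, a ratio of 109 (95% counting interval 19.2 to 4353, edgeR adjusted p = 0.00183). Il1rl1, the 1 marker called higher, passed the filter only through its pro-lymphoid counts, so the filter itself favoured that direction. The part of these cells in the difference of Ms4a2 was not tested.

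Fcgrt encodes the heavy chain of the neonatal Fc receptor, which pairs with beta-2 microglobulin (chromosome 7, 45092993 to 45103822, minus strand). It stood at 3.26, 7.45 and 1.86 CPM in the lymphoid replicates (1, 5 and 6), against 9.92, 41.9 and 14.6 CPM in the myeloid replicates (2, 3 and 4). Lymphoid replicate 5 and myeloid replicate 3 stood above the other libraries of their cultures, and lymphoid replicate 5 came near myeloid replicate 2. The log2 fold change was -2.40 ± 0.69 (SE, edgeR adjusted p = 0.0317), a call lost without lymphoid replicate 1 (edgeR adjusted p = 0.0892), lymphoid replicate 6 (0.0951) or myeloid replicate 3 (0.0926). It was -1.55 without myeloid replicate 3 and -3.11 without lymphoid replicate 5. B2m, the partner gene, stood at 1005 ± 81.8 CPM in the pro-lymphoid and 1295 ± 549.5 CPM in the pro-myeloid culture and was not called (SD, n = 3 each, edgeR adjusted p = 0.344), and myeloid replicate 3 was its highest library too, at 1924 CPM. The log2 fold change of B2m was -0.37, and 0.0343 without that library.

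Per kilobase of exon, Fcer1g led in both cultures with 268 ± 20.9 CPM per kilobase in the pro-lymphoid and 399 ± 119 in the pro-myeloid culture, followed by Fcgr2b with 42.9 ± 10.9 in the pro-lymphoid and 76.9 ± 35.7 in the pro-myeloid culture (SD, n = 3 each), and the lowest library of each lay above the highest library of the next gene. In pro-lymphoid culture Fcgrt, Fcgr4, Fcgr3, Fcgr1, Ms4a2 and Fcer1a followed at 2.41 CPM per kilobase or less, and the ranges of neighbours in that order overlapped or, for Ms4a2 and Fcer1a, met at 0. Within each of the 3 libraries, however, Fcgrt lay above Fcgr4, Fcgr3 above Fcgr1 and Fcgr1 above Ms4a2. In lymphoid replicate 1 the order of Fcgr1 and Ms4a2 rested on 1 count against 0 and is not resolved. In pro-myeloid culture Fcgr3 came next at 34.2 ± 13.5 CPM per kilobase, above Fcgr4 at 17.8 ± 4.92 and Fcgrt at 12.7 ± 9.93, and the values of Fcgr4 and Fcgrt overlapped. Fcgr1 at 2.81 ± 1.54 and Ms4a2 at 1.88 ± 0.540 CPM per kilobase overlapped as well.

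For the 5 Fc receptor genes that fell, the genes with the most similar pattern were sought by the root mean square (RMS) difference of gene-centred log2 CPM over the 6 libraries, where 0 means the same pattern. The closest genes, with that RMS difference, were Adamtsl5 for Fcgr3 (0.254), Il27 for Fcgr4 (0.168), Fam151b for Fcgr1 (0.359), Sned1 for Ms4a2 (0.200) and Lilrb3 for Fcgrt (0.291). In pro-lymphoid culture Adamtsl5 averaged 0.0895 CPM and Sned1 0.0475 CPM, near or under the floor of 3 counts. Their pattern within that culture is therefore not resolved. Among the Fc receptor genes themselves, Fcgr2b and Fcer1g were closest (0.560), followed by Fcgr3 and Fcgr4 (0.760), while Fcgr1 and Fcgr2b were farthest apart (2.33). This difference depends largely on the size of the change between cultures. Within pro-myeloid culture, Fcgr2b was highest in replicate 2 and lowest in replicate 3, whereas Fcer1g was highest in replicate 3 and lowest in replicate 2. Lilrb3, which encodes an inhibitory receptor of the immunoglobulin superfamily, stood at 26.1 ± 10.7 CPM in the pro-lymphoid and 137 ± 98.7 CPM in the pro-myeloid culture (SD, n = 3 each, edgeR adjusted p = 0.0164, and 0.0596 without lymphoid replicate 6). Il27, a cytokine subunit gene, stood at 0.267 ± 0.0834 CPM in the pro-lymphoid and 3.27 ± 1.09 CPM in the pro-myeloid culture (SD, n = 3 each, edgeR adjusted p = 0.00111). Lilrb3 and Il27 were picked for their likeness to Fc receptor genes that fell, so their own falls follow largely from that choice.

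Tested genes around the receptors on chromosome 1 had no edgeR call. Fcgr2b, Fcgr4, Fcgr3 and Fcer1g lie in 1 region, and of 13 other genes tested within 100 kb of any of them, edgeR and limma-voom called 0, DESeq2 called 2 as lower, and 1 was higher and 4 lower at an unadjusted edgeR p under 0.05. Around Ms4a2 on chromosome 19, 3 of 6 tested genes fell. Ms4a3, a gene of granulocyte-monocyte progenitors 5854 bases away, stood at 0.638 ± 0.484 CPM in the pro-lymphoid and 303 ± 70 CPM in the pro-myeloid culture (SD, n = 3 each, edgeR adjusted p = 8.52e-05), with a log2 fold change of -8.86 ± 0.54 (SE). The other such genes were Oosp1 at 1.16 ± 0.821 CPM in the pro-lymphoid and 29.6 ± 17.6 CPM in the pro-myeloid culture and Plac1l at 0.0646 ± 0.0704 CPM in the pro-lymphoid and 3.04 ± 1.17 CPM in the pro-myeloid culture (SD, n = 3 each). Over all 8 loci, 1 of the 47 tested neighbours was higher and 6 were lower, against 16.8% and 20.6% of all tested genes.

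**Figure D4:**
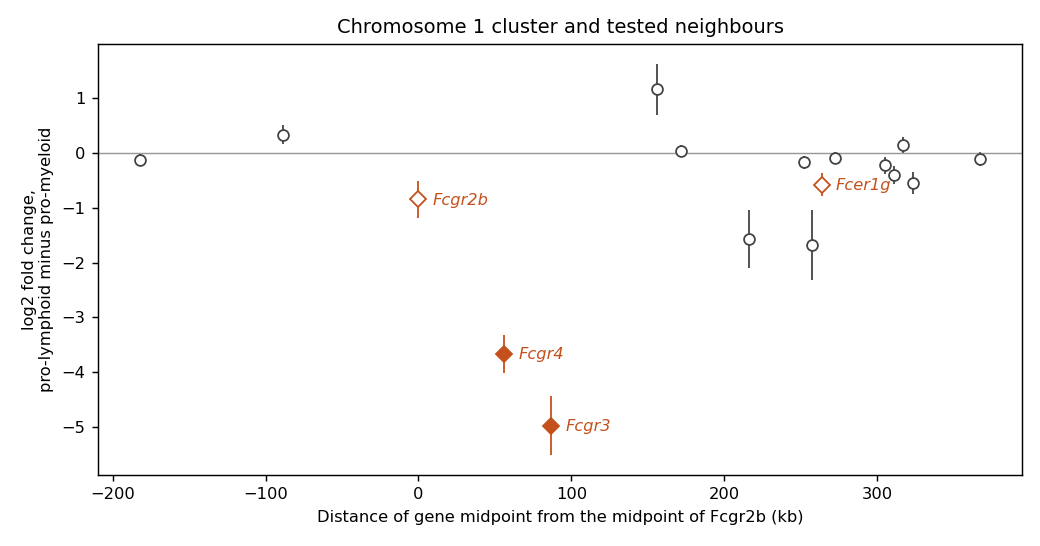
Log2 fold change (y axis, pro-lymphoid minus pro-myeloid culture, bars are the SE) of the Fc receptor genes (diamonds) and the tested genes within 100 kb of them (circles) on chromosome 1, by distance of the gene's midpoint from that of Fcgr2b (x axis, kb). Filled symbols passed at an edgeR adjusted p under 0.05, which Fcgr3 (-4.98) and Fcgr4 (-3.66) did and no circle did.

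Other Fc receptor family genes that edgeR called were higher in pro-lymphoid culture. These genes, Fcrl5 and Fcrl1, needed their pro-lymphoid counts to pass the filter, so the filter itself favoured that direction. Of 11 further Fc receptor and Fc receptor-like genes, 5 were tested, 2 rose and 3 did not pass (1 to 3 rose with each library left out). Of all tested genes, 16.8% were higher. Fcrl6, Fcamr and Faim3 (the gene of the IgM receptor, now called Fcmr) had 0 counts. Fcrl5, a Fc receptor-like gene of B cells, stood at 7.49, 7.90 and 5.28 CPM in the lymphoid replicates (1, 5 and 6), against 0.0521, 0.178 and 0.0434 CPM in the myeloid replicates (2, 3 and 4). It was even over the pro-lymphoid libraries and had 2, 6 and 2 counts in the pro-myeloid ones, of which those in replicates 2 and 4 are under the floor of 3 counts. The size of the difference is therefore uncertain. The fit gave a log2 fold change of 6.26 ± 0.55 (SE, edgeR adjusted p = 0.000368). Fcrl1, another B-cell member, stood at 1.60, 5.21 and 3.68 CPM in the lymphoid replicates (1, 5 and 6), against 0, 0.415 and 0.434 CPM in the myeloid replicates (2, 3 and 4), and its log2 fold change was 3.61 ± 0.97 (SE, edgeR adjusted p = 0.0253), a call that leaving out lymphoid replicate 5, lymphoid replicate 6, myeloid replicate 3 or myeloid replicate 4 ended. Fcrla, which lies 32976 bases from Fcgr2b, had 92 counts in pro-lymphoid culture, against 4 in pro-myeloid culture, but did not pass the filter.

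Receptors that use the Fcer1g chain without binding antibody went both ways. Of 10 such genes 7 were tested, 2 rose, 2 fell and 3 did not pass (1 to 3 rose and 1 to 2 fell with each library left out). Over all tested genes, 16.8% rose and 20.6% fell. Clec4e, a C-type lectin receptor gene known as Mincle, stood at 29.5 ± 8.84 CPM in the pro-lymphoid and 57.7 ± 10.1 CPM in the pro-myeloid culture (SD, n = 3 each, edgeR adjusted p = 0.0209), a fall lost without lymphoid replicate 6 or myeloid replicate 3. Clec4d, a related lectin receptor gene, stood at 26.4 ± 4.38 CPM in the pro-lymphoid and 11.1 ± 4.43 CPM in the pro-myeloid culture (SD, n = 3 each, edgeR adjusted p = 0.0155), a rise lost without myeloid replicate 4. Clec4b1 rose, with 166 counts in pro-lymphoid culture, against 1 in pro-myeloid culture (ratio 166, 95% counting interval 29.4 to 6608, edgeR adjusted p = 0.00547). Tarm1, a receptor gene of neutrophils and macrophages, fell, with 0.0685 ± 0.0678 CPM in the pro-lymphoid and 2.08 ± 1.60 CPM in the pro-myeloid culture (SD, n = 3 each, edgeR adjusted p = 0.00830). Clec4b1 passed the filter only through its pro-lymphoid and Tarm1 only through its pro-myeloid counts, so the filter itself favoured these directions.

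**Figure D5:**
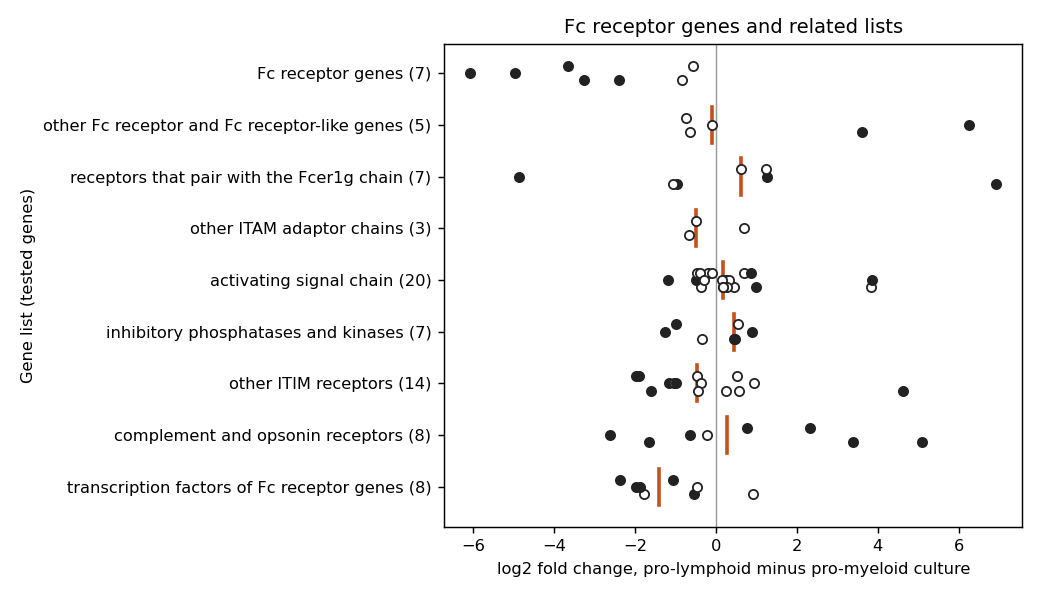
Log2 fold changes (x axis, pro-lymphoid minus pro-myeloid culture) of the tested Fc receptor genes and of the tested genes of 8 related lists (y axis, number of tested genes in brackets), 1 point per gene, with filled points for an edgeR adjusted p under 0.05 and a bar at each related list's median. The Fc receptor genes lie at or below -0.57, while the 20 genes of the activating signal chain have a median of 0.18.

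Downstream of the receptors, kinases and adaptors went both ways. Of 20 genes tested in the activating signal chain, 3 rose, 2 fell and 15 did not pass (3 to 5 rose and 1 to 3 fell with each library left out, and 7 rose and 3 fell with DESeq2), where 37.4% of all tested genes were called. The list had a median log2 fold change of 0.18, against -0.000195 over all tested genes. Syk, the kinase that docks on phosphorylated ITAMs, stood at 198 ± 44.5 CPM in the pro-lymphoid and 256 ± 15.4 CPM in the pro-myeloid culture without a call (SD, n = 3 each, edgeR adjusted p = 0.130, and 0.0290 without lymphoid replicate 1). Fyn, a Src-family kinase gene of Fc receptor and antigen receptor signalling, stood at 60.9, 161 and 107 CPM in the lymphoid replicates (1, 5 and 6), against 11.3, 4.94 and 6.63 CPM in the myeloid replicates (2, 3 and 4). It rose, with a log2 fold change of 3.85 ± 0.45 (SE, edgeR adjusted p = 0.00104). Lyn, the Src-family kinase that phosphorylates the gamma chain in mast cells, stood at 165 ± 21.1 CPM in the pro-lymphoid and 234 ± 28.3 CPM in the pro-myeloid culture (SD, n = 3 each, edgeR adjusted p = 0.0302), a fall lost without lymphoid replicate 5 or 6, without myeloid replicate 3 or without scaling factors. Gab2, an adaptor of IgE receptor signalling, had a log2 fold change of -1.18 ± 0.15, and the phospholipase gene Plcg1 and the protein kinase C gene Prkcd had 1.0 ± 0.14 and 0.86 ± 0.19 (SE, edgeR adjusted p = 0.00142, 0.00202 and 0.0123).

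The other ITAM chains and the inhibitory arm were measured in the same libraries. Tyrobp, the gene of the ITAM adaptor DAP12, stood at 253, 319.9 and 280.2 CPM in the lymphoid replicates (1, 5 and 6), against 261, 641 and 460.2 CPM in the myeloid replicates (2, 3 and 4), without a call (edgeR adjusted p = 0.120, and 0.00729 without myeloid replicate 2). Of 3 tested ITAM adaptor genes, 0 passed with edgeR, DESeq2 or limma-voom and 0 had an unadjusted edgeR p under 0.05, but 2 were lower without myeloid replicate 2. Of 7 inhibitory phosphatases and kinases, 3 rose, 2 fell and 2 did not pass (1 to 3 in either direction with each library left out). Over all tested genes, 16.8% were higher and 20.6% lower. Csk, which restrains Src-family kinases, stood at 293 ± 26 CPM in the pro-lymphoid and 158 ± 5.23 CPM in the pro-myeloid culture and rose (SD, n = 3 each, edgeR adjusted p = 0.00128). Inpp5d, which encodes the phosphatase SHIP recruited by Fcgr2b, rose by a log2 fold change of 0.44 (edgeR adjusted p = 0.0382), which held only without myeloid replicate 3 when libraries were left out singly. Inppl1, its relative, had a log2 fold change of -1.26 (edgeR adjusted p = 0.0230), a fall lost without lymphoid replicate 1 or 6.

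Among receptors with an inhibitory motif other than Fcgr2b, 14 were tested, 1 rose, 5 fell and 8 did not pass. With each library left out, 1 to 2 of them rose and 4 to 6 fell. Lilrb3, which also fell, is not among these 14 genes. The shares over all tested genes were 16.8% higher and 20.6% lower. Cd72, a B-cell receptor gene, rose, with 38.6 ± 12.3 CPM in the pro-lymphoid and 1.59 ± 1.16 CPM in the pro-myeloid culture (SD, n = 3 each, edgeR adjusted p = 0.00117). Lair1, a collagen receptor gene, fell, with 26.8 ± 8.0 CPM in the pro-lymphoid and 100.3 ± 32.9 CPM in the pro-myeloid culture (SD, n = 3 each, edgeR adjusted p = 0.00357). Sirpa, the gene of a receptor for CD47, also fell, with 165 ± 37.7 CPM in the pro-lymphoid and 369.6 ± 75.6 CPM in the pro-myeloid culture (SD, n = 3 each, edgeR adjusted p = 0.00576). Gm885, now called Milr1 and an inhibitory receptor of mast cells, stood at 77.7 ± 11.4 CPM in the pro-lymphoid and 156 ± 30.5 CPM in the pro-myeloid culture and fell (SD, n = 3 each, edgeR adjusted p = 0.00565).

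Complement and other opsonin receptors, which share with Fc receptors the task of taking up marked particles, divided. Of 8 genes tested in this list, 4 rose, 3 fell and 1 missed the threshold (2 to 4 rose and 1 to 3 fell with each library left out). Among all tested genes, 16.8% were higher and 20.6% lower. Itgam, the alpha chain of complement receptor CR3, fell, with 165 ± 30.9 CPM in the pro-lymphoid and 515 ± 140.3 CPM in the pro-myeloid culture (SD, n = 3 each, edgeR adjusted p = 0.00206). Itgax, the alpha chain of CR4, rose, with 137 ± 61.2 CPM in the pro-lymphoid and 27.5 ± 23 CPM in the pro-myeloid culture (SD, n = 3 each, edgeR adjusted p = 0.0468), a call that leaving out lymphoid replicate 5, lymphoid replicate 6 or myeloid replicate 4 ended. C3ar1, a complement anaphylatoxin receptor gene, stood at 3.27 ± 1.12 CPM in the pro-lymphoid and 0.0921 ± 0.0358 CPM in the pro-myeloid culture and rose (SD, n = 3 each, edgeR adjusted p = 0.000495).

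Among genes of transcription factors known to act at Fc receptor genes, those called by edgeR were lower in pro-lymphoid culture. Of 8 tested, 5 fell and 3 did not pass, where 20.6% of all tested genes were lower. With each library left out, 0 to 1 rose and 4 to 6 fell. At an unadjusted edgeR p under 0.05, 1 was higher, and 1 was called higher with DESeq2 and with limma-voom. Irf8, a factor of monocyte and dendritic cell development, stood at 846 ± 215 CPM in the pro-lymphoid and 452 ± 177 CPM in the pro-myeloid culture (SD, n = 3 each, log2 fold change 0.90, edgeR adjusted p = 0.0536). Sfpi1, which encodes PU.1, had a log2 fold change of -0.55 (edgeR adjusted p = 0.0269), a fall lost without lymphoid replicate 1, 5 or 6. The log2 fold change was -2.37 for Cebpb and -1.98 for Cebpa (edgeR adjusted p = 0.00115 and 0.00124). Mitf, a factor of mast cells and melanocytes, stood at 3.66 ± 1.23 CPM in the pro-lymphoid and 13.5 ± 2.51 CPM in the pro-myeloid culture and fell (SD, n = 3 each, edgeR adjusted p = 0.00329).

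Markers of cell types that could carry these receptors were read from the same test, in which 16.8% of all tested genes were higher and 20.6% lower. The 14 neutrophil markers summed to 195 to 395 CPM in pro-lymphoid and 4628 to 9239 CPM in pro-myeloid libraries, with Retnlg at 0 counts in all, and 9 of 10 tested fell. The granule genes Elane, Mpo, Prtn3 and Ctsg made up nearly all of the pro-myeloid sums, with means of 1509, 1655, 1393 and 2076 CPM. Cebpe, the next highest, averaged 71.9 CPM there, and Camp and Ltf 0.235 and 0.526 CPM. Ngp, S100a8, S100a9 and Cebpe needed their pro-myeloid counts to pass the filter, which favoured a fall. The 16 monocyte and macrophage markers summed to 945 to 2353 CPM in pro-lymphoid and 2894 to 4633 CPM in pro-myeloid libraries, and of 13 tested 1 rose and 4 fell (1 to 2 and 3 to 6 with each library left out). Trem2, a macrophage receptor gene, stood at 2.79 ± 2.13 CPM in the pro-lymphoid and 62.5 ± 28.2 CPM in the pro-myeloid culture (SD, n = 3 each, edgeR adjusted p = 0.00291), while Cd163, a macrophage scavenger receptor gene, rose, with 979 counts in the pro-lymphoid culture, against 1 in the pro-myeloid one. Cd163 passed the filter only through its pro-lymphoid counts, which favoured a rise. The 9 dendritic cell markers summed to 879 to 1218 CPM in pro-lymphoid and 458 to 662 CPM in pro-myeloid libraries, with 5 of 7 tested higher and 1 lower (3 to 6 and 0 to 1 with each library left out). Tcf4, the transcription factor gene that was lower, stood at 319.8 ± 35.1 CPM in the pro-lymphoid and 492 ± 74.6 CPM in the pro-myeloid culture (SD, n = 3 each, edgeR adjusted p = 0.0173). It made up most of the pro-myeloid sums. Flt3, a cytokine receptor gene, rose, with 434 ± 67.1 CPM in the pro-lymphoid and 13.9 ± 15.3 CPM in the pro-myeloid culture (SD, n = 3 each, edgeR adjusted p = 0.0112). So did Ccr7, the gene of a chemokine receptor, with 60.5 ± 33.1 CPM in the pro-lymphoid and 0.352 ± 0.0612 CPM in the pro-myeloid culture (SD, n = 3 each, edgeR adjusted p = 0.000179). The 10 B-cell markers summed to 29.1 to 39.3 CPM in pro-lymphoid and 30.1 to 64.5 CPM in pro-myeloid libraries, with 1 of 6 tested higher and 2 lower (1 and 0 to 3 with each library left out). The 12 T and NK cell markers summed to 2.58 to 4.33 CPM in pro-lymphoid and 13.8 to 43.2 CPM in pro-myeloid libraries, with Cd3e, Ncr1 and Gzmb at 0 counts. Nkg7, a cytotoxic granule gene, made up nearly all of the pro-myeloid sums. It fell, with 2.50 ± 1.07 CPM in the pro-lymphoid and 25.3 ± 14.4 CPM in the pro-myeloid culture (SD, n = 3 each, edgeR adjusted p = 0.00274). Klrb1c, an NK cell receptor gene, rose, with 0.388 ± 0.159 CPM in the pro-lymphoid and 0.0880 ± 0.0522 CPM in the pro-myeloid culture (SD, n = 3 each, edgeR adjusted p = 0.0356). These were the 2 genes tested in that list (0 rose and 1 to 2 fell with each library left out). The 6 erythroid and megakaryocyte markers summed to 3.24 to 6.61 CPM in pro-lymphoid and 2.47 to 4.53 CPM in pro-myeloid libraries, with 0 of 3 tested called by edgeR, DESeq2 or limma-voom and 0 at an unadjusted edgeR p under 0.05. Of the 5 tested stem and progenitor markers 3 rose (1 to 3 with each library left out). The part of such cells in the differences of the Fc receptor genes was not tested.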

How the data were processed

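The authors deposited unnormalized read counts of 23337 genes in 6 libraries, with the exon length of each gene. Per the labels' protocols, RNA was selected by its poly(A) tail, made into libraries (NEBNext Ultra) and sequenced from 1 end for 100 bases. Per the file headers, featureCounts 1.5.1 assigned primary alignments to exons of the UCSC annotation of mm10, with no use of strand. The submitters' processing notes also name Trimmomatic, Bowtie, TopHat and DESeq2, and their settings were not stated. Counting 1 primary alignment can give a read of near-identical exons to either gene, and reads of overlapping or antisense genes cannot be told apart.

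Genes were tested with edgeR 4.0.16 in R 4.3.3 (filterByExpr, TMM factors of 0.961 to 1.05, two-sided quasi-likelihood F test, Benjamini-Hochberg adjustment over 12477 genes, threshold 0.05). A gene with few counts in 1 culture passed the filter through the other, which favoured its direction, as for C3ar1, Klrb1c and Plac1l. TMM is the trimmed mean of M values. Log2 fold changes are given for pro-lymphoid over pro-myeloid culture, and the SE was derived from the F statistic. Levels per kilobase divide CPM by the deposited exon length. Similarity used log2 CPM with a prior count of 2. Counting intervals are exact binomial. Alternatives were other scalings, filters and tests (DESeq2 1.42.0, limma-voom in limma 3.58.1), a minimum absolute log2 fold change of 1, summed Fcgr2b and Fcgr3 counts, and each library left out. The procedure was tested on simulated counts.

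The Fc receptor genes and the 17 lists were chosen with earlier results of these data known, and support nothing independently. The rule allowed naming all 8 Fc receptor genes, up to 4 tested genes per list ranked by adjusted p, the counted genes within 100 kb and the 3 most similar genes. Outside it, Fcamr, Fcrl6, Faim3, Syk, Lyn, Itgax, Sfpi1, Slamf1, Procr, Gata2, Irf8, Mpo, Camp, Ltf, Ngp, S100a8, S100a9 and the markers at 0 counts were named after their values were seen. Of 168 list symbols, 4 were found under an older symbol and 1 (Pirb) had no match under the symbols tried. Lilrb3, a symbol under which mouse Pirb is also known, was counted but was not in the list. The counts of receptors with an inhibitory motif therefore leave this gene out. Promoters come from RefSeq (GRCm38.p6), where all 8 genes matched, and the start used for Ms4a2 lies 76 bases from its counted end. Transcripts come from GENCODE (GRCm38). A few genes that the rule allowed are not reported here.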

Additional observations from a re-analysis of the deposited data

How the results depend on the processing

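All 7 tested Fc receptor genes stayed lower in pro-lymphoid culture under every alternative run, and Fcgr3, Fcgr4 and Ms4a2 kept their calls in all of them. With a minimum absolute log2 fold change of 1, 3 Fc receptor genes and 1412 genes in all passed, against 5 and 4665 without it, which follows from the stricter null hypothesis. With each library left out in turn, 3 to 6 Fc receptor genes and 2893 to 5224 genes in all passed. The lowest counts were reached without lymphoid replicate 6 (3 and 2893) and, for the Fc receptor genes, also without myeloid replicate 3 (3). DESeq2 called 7 Fc receptor genes. Other scalings and filters left the count of Fc receptor genes at 5. Over the libraries left out, the log2 fold change of B2m ran from -0.57 to 0.034, turning without myeloid replicate 3. The cause of these shifts was not tested. The split of 2091 higher to 2574 lower genes became 2424 to 2403 with upper-quartile scaling. No paired analysis was possible because no replicate number occurs in both groups. Levels under about 0.0888 CPM are not resolved, which concerns Fcer1a, Ms4a2 in pro-lymphoid culture, Fcgr1 in lymphoid replicate 1, and low values of other genes such as Fcrl5 in pro-myeloid and Plac1l and Tarm1 in pro-lymphoid culture.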
